A study of Mus musculus with 34 samples.

Results

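The heat shock and chaperone genes described here are those whose platform symbol begins with Hsp (families a, b, c, d, e, h, 9 and 90), Dnaj, Cct or Bag followed by a digit, or Pdia, or is Canx, Calr, Hyou1, Hsf1 or Hsf2. They were 67 genes of the 8251 named on the array, read by 98 probe sets, with 1 probe set kept per gene (the brightest over all 34 arrays). By the usual location of their proteins, 46 are cytosolic or nuclear, 7 mitochondrial and 14 of the endoplasmic reticulum (ER). The values are MAS5 signals of Affymetrix arrays, on a linear scale on which every array has about the same mean. Hsf1 and Hsp90ab1 had no probe set with a single symbol and were not analysed here.

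RNA came from the hippocampus and the neocortex of juvenile male mice. The 5 kainate mice received 15 mg/kg of kainate, which excites neurons through a class of glutamate receptors and causes seizures. The 6 nicotine mice received 10 mg/kg of nicotine, which activates nicotinic receptors for acetylcholine, and the 6 control mice received saline. All mice were injected into the peritoneum 3 times at intervals of 2 h on postnatal day 23, and survivors were killed on postnatal day 30, so each group holds survivors only. Mice were counted as the arrays of a region in each group, and the arrays are not tied to mice in the labels. If both regions came from the same mice, the tests between regions, which treat arrays as independent, leave out that pairing. No genetic alteration is named in the labels.

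Chaperones help other proteins to fold, to stay soluble and to be handed on for degradation. Hsp70 proteins bind unfolded stretches in cycles driven by ATP, J-domain proteins (the Dnaj genes) bring them substrates, and Bag proteins and Hsp110 proteins release the nucleotide so that the substrate can leave. In the cytosol a set of these genes is induced by heat shock factor 1, in the ER by the unfolded protein response, and mitochondria have Hsp70, Hsp60 and Hsp10 proteins of their own. Neurons are known for high levels of constitutive Hsp70 and Hsp90 and for a weak heat shock response, and stress-inducible Hsp70 in the hippocampus is a classical marker of seizure stress.

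RefSeq promoter windows of GRCm38.p6, from 250 bases before to 50 bases after a gene's start, were found for 58 of the 67 genes. They were searched on both strands for the heat shock element bound by heat shock factors (GAA, TTC and GAA with 2 bases between units) and for the ER stress element of the unfolded protein response (CCAAT and CCACG with 9 bases between them), which contains the CCAAT box. The ER stress element was found at 6 of the 58 genes (10.345%), against 0.137% of all 27025 genes with a window. The CCAAT box alone was found at 30 of the 58 genes (51.724%), against 41.058% of all genes. The matches, at 6 of the 14 ER genes, are shown because Hspa5 is among them, each written in the direction of the element with its fixed letters in capitals.
Hspa5: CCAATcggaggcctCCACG
Hsp90b1, farther from the start: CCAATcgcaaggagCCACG
Hsp90b1, nearer to the start: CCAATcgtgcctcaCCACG
Pdia6: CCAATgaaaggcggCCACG
Canx: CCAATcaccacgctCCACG
Calr: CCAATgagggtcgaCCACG
Dnajc3: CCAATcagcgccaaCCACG
All 6 genes encode ER proteins, and Hsp90b1 has 2 matches in its window. The windows lie on chromosomes 2 (Hspa5), 10 (Hsp90b1), 12 (Pdia6), 11 (Canx), 8 (Calr) and 14 (Dnajc3) of the mouse.

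The heat shock element was found at 4 of the 58 genes (6.897%), namely Dnajb6, Hspd1, Hspe1 and Hsph1, against 0.662% of all genes. Hspd1 and Hspe1, which encode the mitochondrial chaperonin Hsp60 and its partner Hsp10, lie head to head on chromosome 1, and one of the Hspd1 windows overlaps the Hspe1 window over 285 bases and shares its 2 overlapping elements. The windows of Hspb8, Dnajb1, Dnajb5 and Hspa2 held neither element in this strict form. Those of the stress-inducible Hsp70 genes Hspa1a and Hspa1b held neither as well, so a missing strict match does not show that an element is absent. The 250 bases before the start of Hspa5 and of Hspe1 follow, since these genes differed below, with the element matches in capitals. Hspa5 lies at chr2:34771840-34772089, plus strand, and Hspe1 at chr1:55087898-55088147, plus strand (GRCm38.p6).
Hspa5: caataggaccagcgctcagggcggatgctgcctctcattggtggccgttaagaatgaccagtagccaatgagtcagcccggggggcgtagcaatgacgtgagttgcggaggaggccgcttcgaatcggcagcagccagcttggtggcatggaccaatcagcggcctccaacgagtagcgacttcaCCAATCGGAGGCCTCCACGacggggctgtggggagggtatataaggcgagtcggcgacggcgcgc
Hspe1: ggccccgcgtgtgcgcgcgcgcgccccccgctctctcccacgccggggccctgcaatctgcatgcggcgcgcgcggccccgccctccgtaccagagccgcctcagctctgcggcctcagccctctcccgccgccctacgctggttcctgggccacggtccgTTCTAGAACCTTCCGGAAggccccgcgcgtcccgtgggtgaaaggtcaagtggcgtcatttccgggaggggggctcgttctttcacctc

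In the kainate hippocampus Hspb8 was higher than in the saline hippocampus, and Hspa5 and Dnajb1 were lower. Hspb8 encodes a small heat shock protein that works with Bag3 in chaperone-assisted autophagy, Hspa5 the Hsp70 of the ER (BiP), and Dnajb1 a J-domain partner of cytosolic Hsp70. These were 1 gene called higher (1.64%) and 2 called lower (3.28%) of the 61 tested, at an adjusted p under 0.05 from limma with Benjamini-Hochberg adjustment over all 8695 probe sets tested. Among all probe sets tested, 1.84% were called higher and 0.955% lower, so the share of these genes called higher lay near the background. All fold changes are on the scale of log2(signal + 16), which understates changes of dim genes.

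Hspb8 had a signal of 1456.2, 1538.6, 1535.7, 1398.3 and 1770.6 on the 5 kainate hippocampal arrays. On the 6 saline hippocampal arrays the lowest was 737.7, the median 1137 and the highest 1332.5. Every kainate array lay above every saline array, and also above every nicotine array, whose signals ran from 951.0 to 1325.5 with a median of 1068. Such separation is near the background. Above saline it held for 1 of the 61 chaperone genes and 2.31% of all probe sets, and above nicotine for 1 of 61 and 2.27%. The log2 fold change of kainate over saline was 0.53 ± 0.14 (SE), 1.45-fold, with an adjusted p of 0.0376 from limma. Against nicotine it was 0.50 ± 0.14, with a limma adjusted p of 0.064, which did not pass. In the neocortex Hspb8 had 665.0, 1013.2, 815.2, 746.8 and 1276.6 on the kainate arrays, against 959.5 to 1291.1 (median 1029.65) on the saline arrays, and the groups overlapped. The neocortical mean was 903.4 with kainate and 1061.8 with saline, a decrease that was not called, so the regional estimates had opposite signs. The kainate effect of the hippocampus minus that of the neocortex, which includes this decrease, was 0.79 ± 0.20 on the log2 scale. That difference passed the test of region by treatment (limma adjusted p = 0.0423). Its background was 0.725% of all probe sets with a larger and 0.069% with a smaller effect in the hippocampus, and among the 61 chaperone genes 1 and 0 were called. The call of this difference was lost on leaving out any of 13 of 22 arrays, with adjusted p-values up to 0.121, namely hippocampal kainate replicates 1, 2, 3 and 5 and saline replicates 2 and 3, and neocortical kainate replicates 1, 3 and 4 and saline replicates 3 to 6. The second probe set of Hspb8 averaged only 33.4 and was too dim to be tested, and the mean over both gave a log2 fold change of 0.16 for kainate over saline in the hippocampus (limma adjusted p = 0.85) and a difference of 0.25 between regions (0.87). Bag3, the partner of Hspb8, averaged 458.5 with kainate and 394.9 with saline in the hippocampus (log2 fold change 0.21, limma adjusted p = 0.70).

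Hspa5 had signals of 4984.6, 4463.8, 3023.4, 3743.8 and 4754.5 on the kainate hippocampal arrays. The saline hippocampal arrays ran from 4922.2 to 6138.8 with a median of 5663. Of the 5 kainate arrays, 4 lay below every saline array and the other lay within their range. Hspa5 fell by 0.43 ± 0.11 (SE) on the log2 scale with kainate, a 1.34-fold decrease (limma adjusted p = 0.039). The nicotine hippocampal arrays ran from 4159.7 to 5570.4 with a median of 4972, between the other groups by mean, and differed from saline by a log2 fold change of -0.17 (limma adjusted p = 0.87). In the neocortex the kainate signals were 4977.0, 4954.0, 6766.1, 4200.8 and 3595.4, against 4539.7 to 6769.3 (median 5514) with saline, with a log2 fold change of -0.19 (limma adjusted p = 0.90). The kainate effects of the 2 regions were not told apart for Hspa5, with a difference of -0.23 ± 0.19 on the log2 scale and a 95% interval from -0.61 to 0.15 (limma adjusted p = 0.77).

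Dnajb1 had signals of 1200.0, 1407.5, 1035.0, 1298.7 and 1050.7 on the kainate hippocampal arrays. With saline it ran from 1392.5 to 1828.2 in the hippocampus, with a median of 1572. Again 4 of the 5 kainate arrays lay below every saline array. Dnajb1 fell by 0.41 ± 0.11 (SE) on the log2 scale, 1.33-fold (limma adjusted p = 0.0369). In the neocortex it averaged 1833 ± 172 with kainate and 2047 ± 337 with saline (SD, n = 5 and 6), a log2 fold change of -0.14 that did not pass. The difference of the kainate effects between regions was -0.27 ± 0.16 and did not pass either (limma adjusted p = 0.66).

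**Figure D1:**
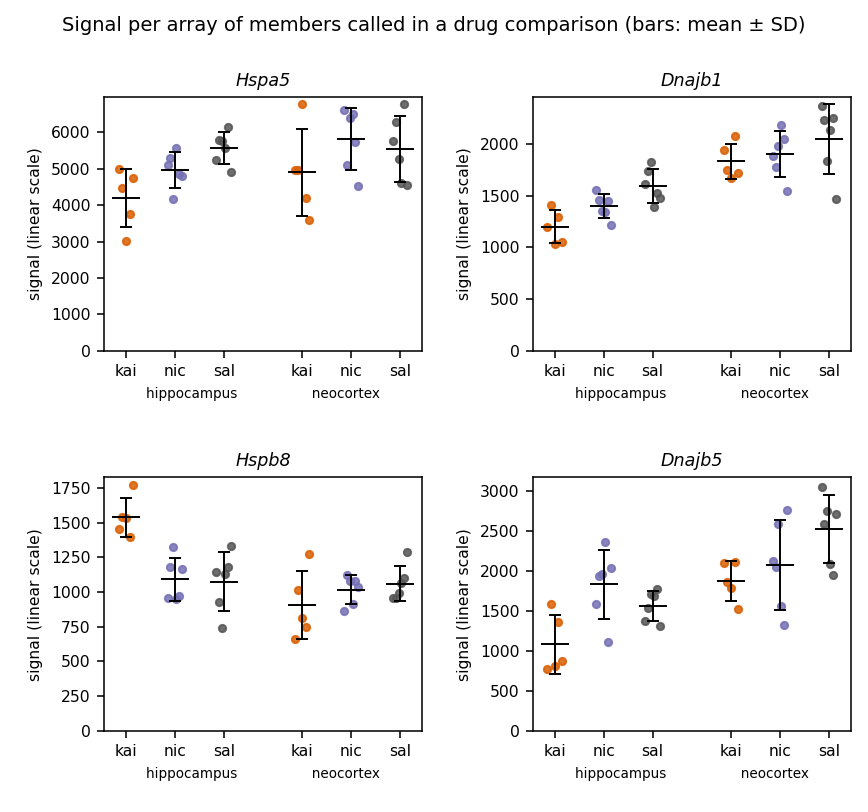
Signal on a linear scale (vertical axis) of Hspa5, Dnajb1, Hspb8 and Dnajb5 on each array, for kainate, nicotine and saline in the hippocampus (left of each panel) and in the neocortex (right). Points are arrays and bars the mean ± SD; the Hspb8 points of the kainate hippocampus, from 1398.3 upwards, lie above all hippocampal points of the other treatments, while those of Hspa5, Dnajb1 and Dnajb5 overlap with saline.

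These calls lay close to the threshold and depended on single arrays. Without kainate hippocampal replicate 3, saline replicate 2 or saline replicate 3 of the hippocampus, 0 of the 61 genes were called, and without saline replicate 6 the number was 4. Each of the 3 genes lost its call on leaving out any of 7 of the 11 arrays, with limma adjusted p-values up to 0.112 for Hspb8 (any kainate array, saline replicates 2 and 3), 0.117 for Hspa5 (kainate replicates 3 and 4, saline replicates 1 to 5) and 0.112 for Dnajb1 (kainate replicates 1, 3 and 5, saline replicates 1, 2, 3 and 5). The arrays also fell into 4 clusters by the signals of the Affymetrix control probe sets, which are not a batch named in the labels. With the cluster as a block, limma adjusted p-values became 0.0665 for Hspb8, 0.0624 for Hspa5 and 0.0584 for Dnajb1. Within the cluster that held 3 kainate and 3 saline arrays of the hippocampus, the log2 differences were 0.56 for Hspb8, -0.34 for Hspa5 and -0.30 for Dnajb1. With 1 kainate and 2 saline arrays, the other shared cluster gave 0.49, -0.21 and -0.51 in the same order of genes. The part of the control signals in these results was not tested beyond this.

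Scaling bears on the same comparison. The median signal of an array was 403.35 to 438.5 with kainate and 395.2 to 434.55 with nicotine in the hippocampus, against 381.05 to 391.2 with saline. Centring every array on its median moved the median log2 fold change of all probe sets to -0.10, against 0.01 as deposited, and turned the calls among all probe sets to 130 higher and 313 lower, against 160 and 83 as deposited. Relative to the median of all probe sets, the median of the chaperone genes was -0.07 as deposited, and centring, which moves every gene alike, cannot change that value. With centring 6 chaperone genes were called lower and 0 higher: Hspa5, Dnajb1, Dnajb5, Hspa2, Hspa8 and Hsph1. Hspb8 then had 0.42 on the log2 scale and an adjusted p of 0.0859, and by quantile normalization Hspa5 had -0.38 and 0.0662. With all 34 arrays in the fit the Hspa5 call was lost as well (adjusted p = 0.0643).

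Of the 61 chaperone genes tested in this comparison, 41 had a negative and 20 a positive log2 fold change, with a median of -0.06 and a range from -0.81 to 0.79. Among all probe sets tested, 48.1% were negative and the median was 0.01. At an unadjusted p under 0.05, 3 chaperone genes were higher and 10 lower, against 7.36% and 6.84% of all probe sets.

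**Figure D2:**
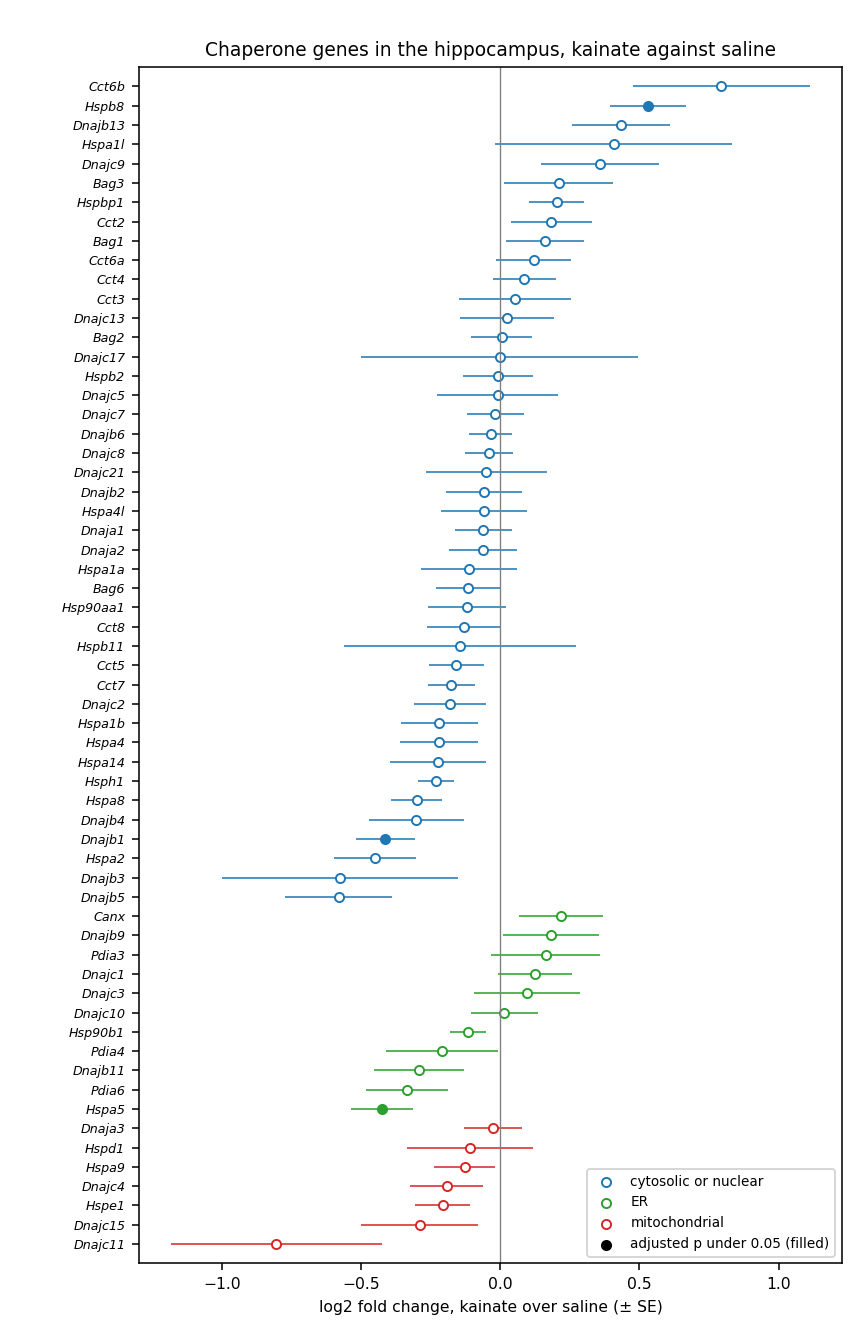
Log2 fold change of kainate over saline in the hippocampus (horizontal axis, bars ± SE) for the 61 chaperone genes tested, coloured by compartment; filled points passed an adjusted p under 0.05. Hspb8, Dnajb1 and Hspa5 are the filled points, and all 7 mitochondrial genes lie left of 0.

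Among the cytosolic and nuclear genes, 29 of 43 tested had a negative log2 fold change with kainate in the hippocampus (median -0.06), and by quantile normalization 26 of 43. Near the threshold stood Hsph1, an Hsp110 nucleotide exchange factor, and Hspa8, a constitutive cytosolic Hsp70. Hsph1 had 8899.8, 8066.5, 7367.2, 7628.3 and 8000.7 on the kainate arrays, against 8544.5 to 9780.2 (median 9486) with saline, a log2 fold change of -0.23 ± 0.06 (limma adjusted p = 0.0561). The Hspa8 signals were 10870.3, 10665.9, 9372.9, 10611.0 and 9758.2 with kainate, against 9755.4 to 13821.8 (median 13425) with saline, and -0.30 ± 0.09 on the log2 scale (limma adjusted p = 0.0931). In both genes the groups overlapped, through the first kainate array for Hsph1 and through the lowest saline array for Hspa8. The stress-inducible Hsp70 genes Hspa1a and Hspa1b did not pass in either direction. Hspa1a averaged 944 ± 229 with kainate and 1007 ± 154 with saline (SD, n = 5 and 6), and Hspa1b 723 ± 109 and 843 ± 118. Their log2 fold changes were -0.11, with a 95% interval from -0.47 to 0.25, and -0.22, with an interval from -0.51 to 0.07.

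Hsp90aa1, the inducible cytosolic Hsp90, had a log2 fold change of -0.12 (limma adjusted p = 0.77) and Hspa4, another Hsp110 protein, -0.22 (0.51). Among the cytosolic and nuclear genes the largest positive estimate was that of Cct6b, a chaperonin subunit best known from testis, at 0.79 (limma adjusted p = 0.24), and the most negative that of Dnajb5, a J-domain protein of cytosol and nucleus, at -0.58 (0.13). Cct2, a core subunit of the cytosolic chaperonin, had 0.18 (0.62). Hspb1, the small heat shock protein Hsp27, averaged only 89.6 with kainate and 100.1 with saline, and Hsf2, a heat shock factor, 40.7 and 60.8. Both were too dim to be tested, as was Dnajb8.

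All 7 mitochondrial genes had a negative log2 fold change with kainate in the hippocampus, also after quantile normalization, but 0 were called and 2 passed an unadjusted p under 0.05. Their median was -0.19. The range ran from -0.81 in Dnajc11, a J-domain protein tied to the cristae (limma adjusted p = 0.34), to -0.03 in Dnaja3, a J-domain partner of mitochondrial Hsp70. Hspe1 had 2634.8, 2579.4, 2043.0, 2100.7 and 2211.6 with kainate, against 2373.4 to 2940.8 (median 2639) with saline, -0.21 ± 0.10 on the log2 scale (limma adjusted p = 0.35). Hspd1, its partner, varied widely between arrays of the same group, with 9241.7, 7609.5, 3551.0, 4361.4 and 5319.9 on the kainate arrays and 3648.0 to 7723.9 (median 6770.45) on the saline arrays. Its log2 fold change was -0.11, with a 95% interval from -0.58 to 0.36. Hspa9, the mitochondrial Hsp70, averaged 2832 with kainate and 3105 with saline (log2 fold change -0.13, limma adjusted p = 0.66), and Dnajc15, which acts in protein import, had -0.29 (0.58).

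Of the ER genes, 11 of 14 were tested, with 1 called lower (Hspa5), 6 positive, 5 negative and a median log2 fold change of 0.01. Among the genes with an ER stress element in the window, the estimates had both signs. Only that of Hspa5 passed, so a difference in direction was not shown. Pdia6, a protein disulfide isomerase, had -0.34 (limma adjusted p = 0.30) and Hsp90b1, the Hsp90 of the ER, -0.12 (0.44). Canx, the membrane-bound lectin chaperone calnexin, had 0.22 (0.55), while its second, dimmer probe set gave -0.13 (0.79). Dnajc3, a J-domain protein of the unfolded protein response, had 0.09 (0.88). Pdia3 and Pdia4, other disulfide isomerases, had 0.16 (0.77) and -0.21 (0.70). Calr, the soluble lectin chaperone, averaged 63.5 with kainate and 41.3 with saline, and Hyou1, the Hsp110 protein of the ER, 7.6 and 9.0, both too dim to be tested, as was Pdia5.

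Chaperone-related genes outside the set were counted from lists of cofactors. With kainate in the hippocampus, 0 of 16 tested cytosolic cochaperones were called (median log2 fold change -0.10). The same held for 0 of 9 genes of mitochondrial protein quality control (-0.18) and 0 of 24 genes of ER folding and stress (-0.02). Among all probe sets 1.84% were called higher and 0.955% lower, so 0 calls in lists this short lay near the background. Marker genes of some cell types were called in the same arrays. Of the microglial markers 14 of 16 tested were called higher, and the summed signal of the 19 measured was 54256 to 86766 with kainate, against 20798 to 23518 with saline. Astrocyte markers were called higher for 5 of 12, with a sum of 160871 to 194254, against 105711 to 119889 with saline. For interneurons 3 of 15 were called lower, with sums of 27689 to 31711 and 33783 to 38049. Excitatory neuron markers had 0 of 14 called. Their sums of 82333 to 86618 (median 84963) lay within those of saline, 81535 to 102595, but all below the saline median of 94636. No measured marker of these 4 lists averaged 0 in either group. In bulk tissue, fewer cells of a type and less RNA per cell cannot be told apart, and the part of cell makeup in the chaperone values was not tested.

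Set against nicotine, kainate left 1 chaperone gene of 61 lower in the hippocampus (1.64%), Dnajb5, and 0 higher. The background was 2.04% of all probe sets called higher and 0.38% lower. Dnajb5 had 770.6, 1586.0, 805.8, 1367.5 and 876.2 on the kainate arrays. On the nicotine arrays it ran from 1107.9 to 2357.1 with a median of 1951.5, and on the saline arrays from 1311.0 to 1768.5 with a median of 1614. Of the kainate arrays 3 lay below every nicotine and every saline array, and the other two lay among them. Dnajb5 fell by 0.78 ± 0.19 (SE) on the log2 scale against nicotine, 1.71-fold (limma adjusted p = 0.0309), and no longer passed when kainate hippocampal replicate 1, 3 or 5 or nicotine hippocampal replicate 2, 3, 4 or 6 was left out (adjusted p up to 0.107). Within the control clusters that held both groups the log2 differences were -0.70 (3 against 3 arrays), -1.27 (1 against 1) and -0.77 (1 against 2). Of the ER folding and stress list 1 of 24, Herpud1, a component of ER-associated degradation, was called lower in this comparison.

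Nicotine against saline gave 0 called chaperone genes in the hippocampus and 0 in the neocortex by limma. Among all probe sets too, 0% were called higher and 0% lower in either region. At an unadjusted p under 0.05, 3 of the 61 chaperone genes tested were higher and 0 lower in the hippocampus. In the neocortex 4 of 61 were higher and 5 lower. Of all probe sets, 3.07% were higher and 2.73% lower at that threshold in the hippocampus, and 5% and 4.6% in the neocortex. The smallest limma adjusted p among the chaperone genes was 0.851 in the hippocampus and 0.337 in the neocortex. In the hippocampus the log2 fold changes ran from -0.73 in Hspb11 to 0.68 in Cct6b, with a median of -0.01. Mitochondrial values there ran from -0.60 in Dnajc11 to 0.22 in Hspd1, and ER values from -0.35 in Pdia4 to 0.30 in Dnajc3. In the neocortex the cytosolic values ran from -0.63 in Dnajb3 to 0.41 in Dnajc17. The mitochondrial values there ran from -0.27 in Dnajc15 to 0.59 in Hspd1, and the ER values from -0.50 in Pdia4 to 0.36 in Canx. The second, dimmer probe set of Hspd1 had the opposite sign, at -0.59 (limma adjusted p = 0.89) in the hippocampus and -0.21 (0.80) in the neocortex. Over all probe sets the standard error of the log2 values had a median of 0.163 in the hippocampus and 0.155 in the neocortex, which limits what 6 arrays a group can show.

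Kainate against saline in the neocortex also gave 0 called chaperone genes by limma, where 0.0115% of all probe sets were called higher and 0% lower. At an unadjusted p under 0.05, 0 were higher and 4 lower, with a smallest adjusted p of 0.85. At the same threshold 2.93% of all probe sets were higher and 2.63% lower. Mitochondrial genes had 5 positive and 2 negative values (median 0.09), from -0.30 in Dnajc15 to 0.33 in Hspd1, whose second, dimmer probe set gave -0.02 (limma adjusted p = 0.996). ER genes had 2 positive and 9 negative values (median -0.08), from -0.40 in Pdia4 to 0.16 in Pdia3. Cytosolic and nuclear genes ranged from -0.52 in Cct6b to 0.54 in Dnajc17. Kainate against nicotine in the neocortex gave 0 called as well, against 0.0345% of all probe sets called higher and 0% lower. At an unadjusted p under 0.05, 0 chaperone genes were higher and 1 lower, against 1.99% and 2% of all probe sets. No difference of the nicotine effect between regions was called for any chaperone gene by limma (0 called, against 0% and 0% of all probe sets). The estimates, hippocampus minus neocortex, ran from -0.92 to 0.63 on the log2 scale. Their standard error had a median of 0.23 over all probe sets, so differences may have been missed. At an unadjusted p under 0.05 the difference was positive for 0 and negative for 2 chaperone genes, against 1.97% and 1.81% of all probe sets.

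**Figure D3:**
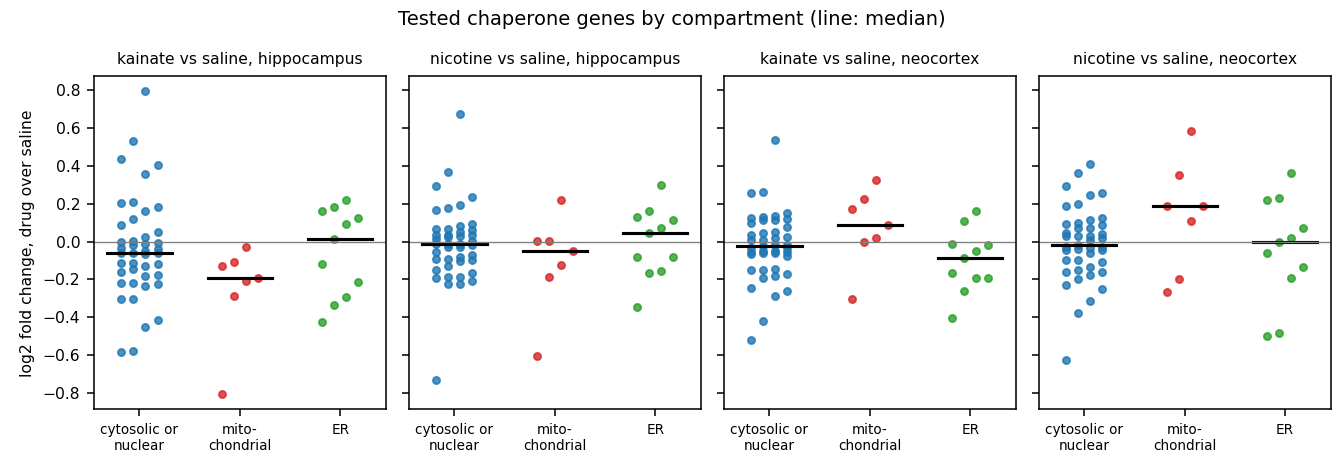
Log2 fold change over saline (vertical axis) of the tested chaperone genes, 43 cytosolic or nuclear, 7 mitochondrial and 11 ER, in the 4 comparisons of a drug with saline; points are genes and lines medians. The mitochondrial median is -0.19 with kainate in the hippocampus and 0.19 with nicotine in the neocortex, and the cytosolic medians stay between -0.06 and -0.01.

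In saline mice 5 chaperone genes were higher in the hippocampus than in the neocortex (8.2%) and 2 lower (3.28%) of 61 tested, against a background of 5.36% and 5.19% of all probe sets. Higher were the Hsp70 genes Hspa1b, Hspa2 and Hspa1a, the chaperonin subunit gene Cct5 and Hspe1. Lower were the J-domain genes Dnajb5 and Dnajb1. Of the 61 genes, 2 had all hippocampal arrays above all neocortical arrays and 1 had all below. Among all probe sets this held for 3.28% and 2.93%. Of the 5 probe sets of Hspa4, the brightest gave a log2 difference of -0.02 (limma adjusted p = 0.95). The dimmer ones were all negative, at -0.94 (0.0384, called lower in the hippocampus), -0.55 (0.29), -0.41 (0.0599) and -0.35 (0.11). The mean over all its probe sets was called lower there at -0.45 (0.00534). None of the 11 ER genes tested was called, and Hspa5 was nearly the same in both regions, 5568 ± 432 in the hippocampus and 5541 ± 901 in the neocortex (SD, n = 6 each; the log2 difference was 0.02, with a 95% interval from -0.24 to 0.28).

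Hspa1b had a signal of 723.1 to 1047.5 with a median of 819.75 in the saline hippocampus, against 380.0 to 484.7 with a median of 446 in the saline neocortex. The regions did not overlap, and the log2 difference was 0.92 ± 0.13 (SE), 1.89-fold (limma adjusted p = 2.8e-06). Hippocampal arrays lay above all neocortical arrays also with kainate (log2 difference 0.44) and with nicotine (1.06). The change of the difference with drug did not pass (limma adjusted p = 0.42 for kainate and at least 0.99 for nicotine). Hspa1a, its neighbour, had 797.6 to 1217.1 (median 980.05) in the saline hippocampus, against 559.6 to 833.3 (median 707) in the saline neocortex, and the regions overlapped. Its log2 difference was 0.50 ± 0.15 (limma adjusted p = 0.027). These 2 genes are near-identical copies, so their probe sets may share target RNA and the split between them is uncertain. The 250 bases before their starts are shown for that likeness: they differ at 3 bases (98.8% identical), written in capitals. Hspa1a lies at chr17:34972157-34972406, minus strand, and Hspa1b at chr17:34959239-34959488, minus strand (GRCm38.p6).
Hspa1a: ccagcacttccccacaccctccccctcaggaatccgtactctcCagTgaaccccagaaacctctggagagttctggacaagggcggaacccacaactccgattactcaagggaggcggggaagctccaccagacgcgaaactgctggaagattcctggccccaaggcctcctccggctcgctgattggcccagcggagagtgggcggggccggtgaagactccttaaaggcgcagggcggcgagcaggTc
Hspa1b: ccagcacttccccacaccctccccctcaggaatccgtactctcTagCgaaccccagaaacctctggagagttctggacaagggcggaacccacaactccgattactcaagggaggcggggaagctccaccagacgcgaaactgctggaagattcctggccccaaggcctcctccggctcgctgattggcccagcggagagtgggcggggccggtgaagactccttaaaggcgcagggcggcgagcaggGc

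Hspa2, an Hsp70 gene best known from spermatogenesis, had 899.0 to 1227.6 (median 1089.8) in the saline hippocampus, against 371.6 to 791.3 (median 611) in the saline neocortex, without overlap. The log2 difference was 0.86 ± 0.16 (SE), 1.82-fold (limma adjusted p = 0.000173). It was 0.58 with kainate, where the regions overlapped, and 0.90 with nicotine, where they did not. The change with drug did not pass (limma adjusted p = 0.78 for kainate and at least 0.99 for nicotine). Within the hippocampus the kainate arrays had 1038.5, 1003.0, 521.9, 659.6 and 787.0, a log2 fold change of -0.45 ± 0.15 against saline (limma adjusted p = 0.12).

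Cct5, a subunit of the cytosolic chaperonin that folds actin and tubulin, had 4267.2 to 5929.6 (median 5402) in the saline hippocampus, against 3081.7 to 4462.4 (median 4014) in the saline neocortex. The log2 difference was 0.42 ± 0.10 (SE; limma adjusted p = 0.00278), although 1 hippocampal array lay within the neocortical range. Its second, dimmer probe set gave 0.07 (limma adjusted p = 0.92), and the mean over both 0.24 (0.33). Hspe1 had 2373.4 to 2940.8 (median 2639) in the saline hippocampus, against 1600.4 to 2514.2 (median 2043) in the saline neocortex, a log2 difference of 0.42 ± 0.12 (limma adjusted p = 0.0142), and the regions overlapped. With kainate that difference was 0.13 and with nicotine 0.18. The change of the Hspe1 difference with drug did not pass (limma adjusted p = 0.66 for kainate and at least 0.99 for nicotine). Hspd1, which shares its start region, had 0.15 ± 0.23 in saline mice and did not pass. The second, dimmer probe set of Hspd1 gave -0.15 (limma adjusted p = 0.87).

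Dnajb5 had 1311.0 to 1768.5 (median 1614) in the saline hippocampus, against 1950.4 to 3053.1 (median 2652) in the saline neocortex, without overlap. It was lower by a log2 difference of -0.68 ± 0.18 (SE; limma adjusted p = 0.00912). The difference was -0.84 with kainate and -0.17 with nicotine, and with either drug the regions overlapped. Its change with drug did not pass (limma adjusted p = 0.90 for kainate and at least 0.99 for nicotine). Dnajb1 had 1392.5 to 1828.2 (median 1572) in the saline hippocampus, against 1465.8 to 2364.3 (median 2183) in the saline neocortex, with overlap, and -0.34 ± 0.11 on the log2 scale (limma adjusted p = 0.0285). All kainate hippocampal arrays lay below all kainate neocortical arrays for Dnajb1 (log2 difference -0.61), and with nicotine the difference was -0.44. The saline call of Dnajb1 was lost with median centring (adjusted p = 0.114), with only the saline arrays in the fit (0.0904) and on leaving out hippocampal replicate 4, 5 or 6 or neocortical replicate 1, 2, 4 or 5 (up to 0.0815). That of Hspa1a was lost without hippocampal replicate 1 or 2 or neocortical replicate 5 (up to 0.0804), and that of Hspe1 without neocortical replicate 3 or 4 (up to 0.0513).

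**Figure D4:**
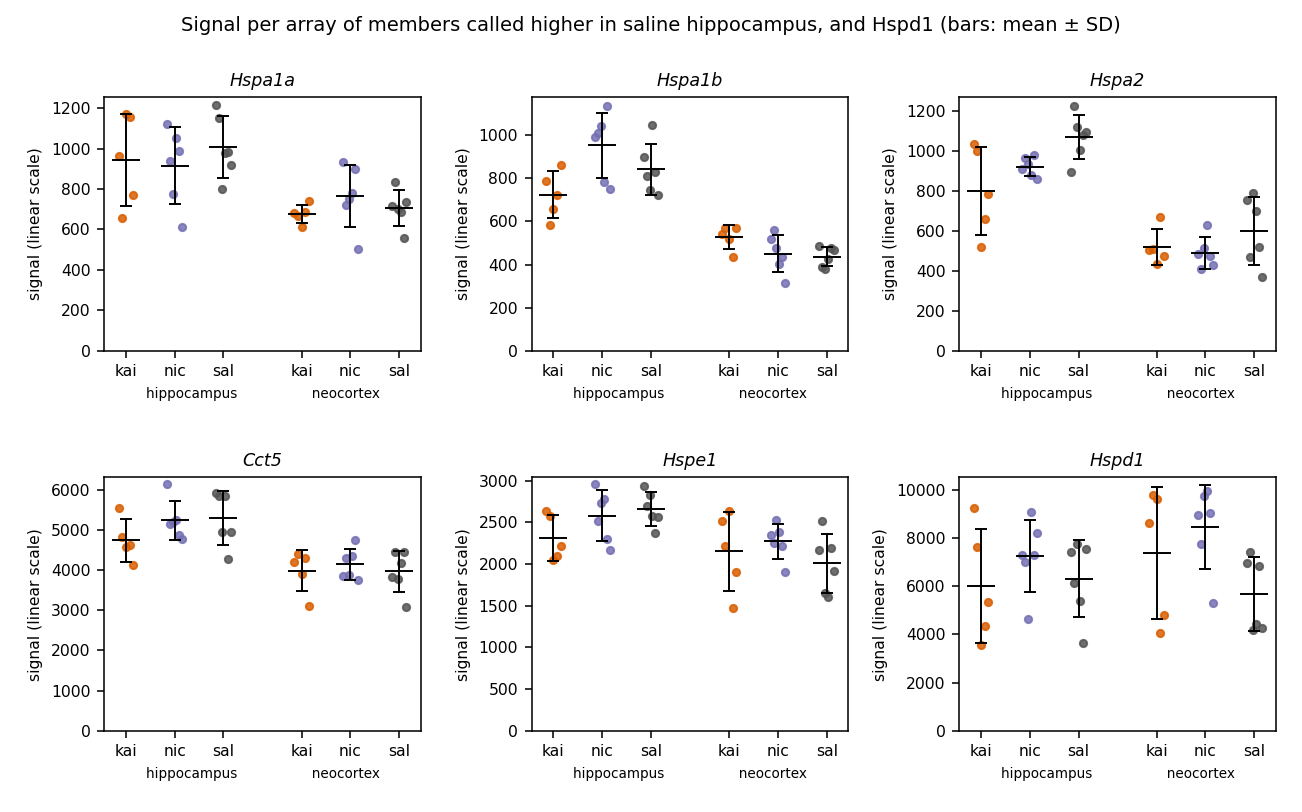
Signal on a linear scale (vertical axis) of Hspa1a, Hspa1b, Hspa2, Cct5, Hspe1 and Hspd1 on each array, for kainate, nicotine and saline in the hippocampus (left of each panel) and in the neocortex (right). Points are arrays and bars the mean ± SD; the saline hippocampal arrays of Hspa1b start at 723.1, above the highest saline neocortical array at 484.7, and those of Hspd1 overlap between regions.

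The labelled regions were checked against their markers in saline mice: 8 of 10 hippocampal markers were called higher in the hippocampus and 6 of 9 neocortical markers were called lower there. Astrocyte markers were called higher in the hippocampus for 5 of 12 and oligodendrocyte markers for 3 of 10, while excitatory neuron markers had 2 higher and 5 lower of 14. Their part in the chaperone differences was not tested. Of the related lists, Fkbp5, an Hsp90 cochaperone of steroid receptors, was called higher in the hippocampus (1 of 16), as were P4hb, a disulfide isomerase, and Serpinh1, the collagen chaperone of the ER (2 of 24). Among all probe sets 5.36% were called higher and 5.19% lower, so these few calls of the related lists lay near the background.

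Between arrays of a group, the median SD of the tested genes was 0.229 on the log2 scale, against 0.281 over all probe sets tested. It was smallest in Hsp90b1 at 0.077 and largest in Dnajb3 at 0.875, a dim gene whose protein is known from testis. For genes with several probe sets, 21 of 67, the main tests used only the brightest, and values of other probe sets are given only where stated.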

How the data were processed

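The authors deposited signal intensities on a linear scale, made with MAS5 per the submitters' processing notes, with no version given. MAS5 joins perfect-match and mismatch probes into 1 signal. The 2% trimmed mean of every array was 1000.5 to 1000.6, so the arrays had been scaled alike. Correlations between arrays ran from 0.916 to 0.969. Gene symbols came from the platform annotation, which gives 1 symbol for 10833 of 12422 non-control probe sets, several for 396 and none for 1193. All 67 genes matched the reference gene table. Probe sets whose mean over the arrays of a fit reached the 30th percentile were tested (8695). Treatments were compared in the 17 arrays of a region, and regions and their interactions in all 34, treated as independent. Fits used limma 3.58.1 (lmFit, eBayes with trend) in R 4.3.3 on log2(signal + 16), and the scripts were tested on simulated data. P-values measure the spread between arrays of a group, whose number limits precision. Sequences are RefSeq's. Figures were drawn with matplotlib 3.10.9.

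The genes, compartments and lists were chosen with earlier results of these data known. Genes were named if called in any comparison, if highest or lowest in their compartment in a drug comparison, or if on a set list of main chaperones. Genes outside the set were named only where called, at most 4 a comparison. Control clusters of arrays were cut at 4 by average linkage.

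Replicate numbers are shared by the groups. Deviations of same-numbered arrays correlated above 0.1 in every pair only for kainate and nicotine in the hippocampus (0.118 to 0.278, 5 pairs), a pairing that rests on the data, since the labels name no shared litter or day. With the replicate block the count there stayed at 1. Alternatives were median centring, quantile normalization, pseudocounts of 1 and 64, no filter or a 50th percentile filter, the mean over probe sets, the control cluster and the replicate number as blocks, other arrays in the fit, and leaving out each array. One more, the largest control cluster only, was chosen after seeing the data.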

Additional observations from a re-analysis of the deposited data

Results flagged for a closer look

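For Hspb8 the kainate effect of the hippocampus minus that of the neocortex was 0.79 on the log2 scale. This difference passed the test of region by treatment in limma (adjusted p = 0.0423). The hippocampal mean was higher with kainate than with saline (1539.9 against 1075.5). The neocortical mean was lower (903.4 against 1061.8), where the kainate change was not called. For most of the 22 arrays, the call of the difference was lost when that array alone was left out, as given above. Several alternatives of the processing, given below, lost the call too.

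In 204 sets of arrays (a gene in a group) 9 had an array far from its group by Dixon's test, where chance alone gives about 1 in 20. In the hippocampus Cct5 had 6153.9 on nicotine replicate 1, against 4778.6 to 5258.9 on the others, and Hsph1 had 9358.5 on nicotine replicate 6, against 8497.0 to 8769.4. Hsf2 had 83.8 on nicotine replicate 2, against 37.7 to 50.9, and Dnajc15 had 925.4 on saline replicate 5, against 435.1 to 615.2. In the neocortex kainate replicate 5 stood apart for 2 genes, with 1018.3 for Dnajb3 (the others 156.7 to 379) and 168.7 for Hspb11 (404.4 to 486.9). Hspb11 also had 442.8 on nicotine replicate 1, against 346.2 to 374.1. Dnajc17 had 169.2 on nicotine replicate 5 of the neocortex, against 352.4 to 449.3. Hsf2 had 87.1 on saline replicate 4 of the neocortex, against 27.8 to 44, at signals too dim to be tested.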

How the results depend on the processing

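For kainate against saline in the hippocampus the 3 called genes became 0 with the control cluster as a block, 0 in the largest control cluster alone and 6 with median centring, and 0 to 4 when an array was left out (0 without kainate replicate 3, saline replicate 2 or saline replicate 3, and 4 without saline replicate 6). For kainate against nicotine in the hippocampus the 1 became 2 with the control cluster as a block, 0 in the largest control cluster alone, 2 with all 34 arrays in the fit, and 0 to 1 when an array was left out. For the regions in saline mice the 7 became 4 in the largest control cluster alone, and 5 to 8 when an array was left out. For the kainate effect between regions the 1 became 0 in the largest control cluster alone, with the mean over probe sets, with median centring (all probe sets 35 larger and 12 smaller, against 63 and 6), without a filter and with only the 4 groups compared in the fit, and 0 to 1 when an array was left out. The other 5 comparisons stayed at 0 throughout. Hspa1b and Hspa2 were called between regions under all 11 alternatives and all 12 sets with an array left out. The cause of these moves was not tested, except that the largest cluster holds fewer arrays and the mean over probe sets adds a dim probe set to Hspb8. With the replicate block, the counts of chaperone genes called were 4 for kainate against saline in the hippocampus, 7 between regions and 1 for the kainate effect between regions; the numbers pair no samples there by the rule used. No called gene reversed its direction in any alternative run. Among all probe sets, the largest control cluster alone called 88 for kainate against saline in the hippocampus (243 with all arrays), 101 for kainate against nicotine there (210), 603 between regions (917) and 37 for the kainate effect between regions (69), and median centring called 443 in the first of these comparisons.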
